A study of Mus musculus with 4 samples.

Results

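Complex I of the mitochondrial respiratory chain was described through the genes whose symbols begin with Nduf, the nuclear genes named for NADH dehydrogenase (ubiquinone). Every row of the deposited count table that GENCODE lists as protein coding, whose symbol begins with Nduf and which held at least 20 counts summed over the 4 libraries was taken, which gave 46 genes of 54752 rows. Of these, 38 are structural genes and 8 carry the Ndufaf symbol of assembly factors. Complex I takes electrons from NADH, passes them along iron-sulphur clusters to ubiquinone and pumps protons out of the mitochondrial matrix. Its matrix arm is made of an N module, which oxidises NADH, and a Q module, which reduces ubiquinone; the membrane arm pumps protons, and its core subunits are encoded by mitochondrial DNA. Accessory subunits surround these cores, and assembly factors help build the enzyme without being part of it. Heart muscle, which relies on oxidative metabolism, is rich in this enzyme.

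Hearts of mice at postnatal day 14 gave 4 RNA libraries, of which 2 carry the label Carm1 mutant and 2 the label wild type; the series text calls the hearts neonatal. Carm1 encodes an arginine methyltransferase that acts on histones and other proteins. The mutant allele, the strain, the sex and whether each library came from its own animal were not given in the sources used here, and the p-values therefore cover only the spread among 4 libraries, which may be technical. Library totals were 22217442 and 11677604 counts in the mutant and 21719161 and 20778420 in the wild type. Carm1 itself had 35.8 and 31.8 CPM in the mutant, against 45.9 and 52.3 CPM in the wild type. CPM here are counts scaled to library totals that were adjusted by TMM, edgeR's scaling between libraries. Carm1 did not pass the test (log2 fold change −0.54 ± 0.19, SE, with an edgeR false discovery rate, FDR, of 0.114). As a share of the unadjusted totals, mutant replicate 1 (897 counts) lay above wild type replicate 1 (803 counts), so the groups overlapped there. A summed 7 and 0 counts of 4 Y-linked genes were found in the mutant libraries, against 1769 and 2236 in the wild type libraries, and Xist had 8116 and 3921 counts in the mutant against 12 and 15 in the wild type, so genotype and sex cannot be told apart in any value below.

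The wild type libraries stood apart from each other on these genes. The median log2 ratio of wild type replicate 1 to wild type replicate 2 was 0.73 over the 46 Nduf genes and 0.00 over all genes tested. Across the 46 genes this ratio was lower for genes with a longer longest transcript (Pearson r = −0.38, Spearman rho = −0.41; a description over genes that share the same libraries). Over all genes tested, a library's deviation from the mean correlated with transcript length at a Spearman rho of 0.20 and −0.0035 in the mutant libraries and of −0.34 and 0.27 in the wild type libraries. With length and GC offsets fitted to each library, the median log2 fold change of the Nduf genes given below was −0.55 in place of −0.66. Summed over 8 cardiomyocyte markers, expression was 36925 and 38221 CPM in the mutant, against 74953 and 65599 CPM in the wild type, and over 7 fibroblast markers it was 5562 and 5906 CPM in the mutant, against 3240 and 3786 CPM in the wild type. Of the cardiomyocyte markers 1 was called lower and 1 higher, and of the fibroblast markers 1 was called higher. None of the 7 endothelial, 6 macrophage, 6 skeletal muscle, 4 brown adipocyte and 4 erythroid markers was called in either direction; of the skeletal muscle markers 2 and of the brown adipocyte markers 1 held enough counts to be tested, and Myh1 and Myh4 were at 0 in every library. In whole-heart RNA fewer cells of a type and less RNA per cell cannot be told apart, and the part of cell makeup in the values below was not tested.

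As a set the Nduf transcripts lay lower in the Carm1 mutant hearts. They summed to 7620 and 8490 CPM in the mutant, against 16021 and 10014 CPM in the wild type, so the highest library was wild type replicate 1 and the groups did not overlap on the TMM scale. As a share of the library total they took 0.860% and 0.987% in the mutant, against 1.29% and 0.944% in the wild type, where the groups overlapped. All 46 genes passed the filter on low counts. By edgeR's quasi-likelihood test at an FDR under 0.05, 5 genes fell, none rose and 41 did not pass, where 4.58% of all 15283 genes tested fell, 2.79% rose and 7.37% passed in either direction. The genes that fell were Ndufs5, Ndufa12, Ndufs1, Ndufaf1 and Ndufaf4. The log2 fold change, mutant minus wild type, was negative in 45 of the 46 genes, with a median of −0.66 and a range of −2.31 to 0.04, beside a median of 0.02 over all genes tested. In 31 genes both mutant libraries lay below both wild type libraries, and in 0 genes both lay above, where 28.7% and 30.3% of all genes tested did so. On library totals the counts were 16 below and 2 above, where 12.1% and 56.0% of all genes tested did so. Without wild type replicate 1 the median was −0.24 and 35 of 46 genes were negative. With library totals in place of TMM scaling the median was also −0.24 and 35 genes were negative, on a scale that set the median of all genes at 0.41.

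The number of Nduf genes called lower moved with the fit, and so did the share of all genes. Wild type replicate 2 had the greatest bearing: without it edgeR called 44 Nduf genes, beside 19.5% of all genes tested, and without wild type replicate 1 the 11 stood beside 8.76%. Without mutant replicate 1 or mutant replicate 2 it called 2, Ndufs5 and Ndufa12, beside 1.15% and 0.987%. Library totals gave 2 (1.35% of all genes), a fit with no filter on low counts 21 (5.52%), DESeq2's own test 15 (7.75%) and length and GC offsets 17 (10.3%). A replicate block gave 4 (4.2%), the block with those offsets 11 (8.92%) and a crossed block, which joins mutant replicate 1 to wild type replicate 2 and the reverse, 26 (14%). DESeq2 size factors (4.47%), scaling without the mitochondrial chromosome (4.56%) and limma-voom (4.59%) each gave the same 5 genes.

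**Figure D1:**
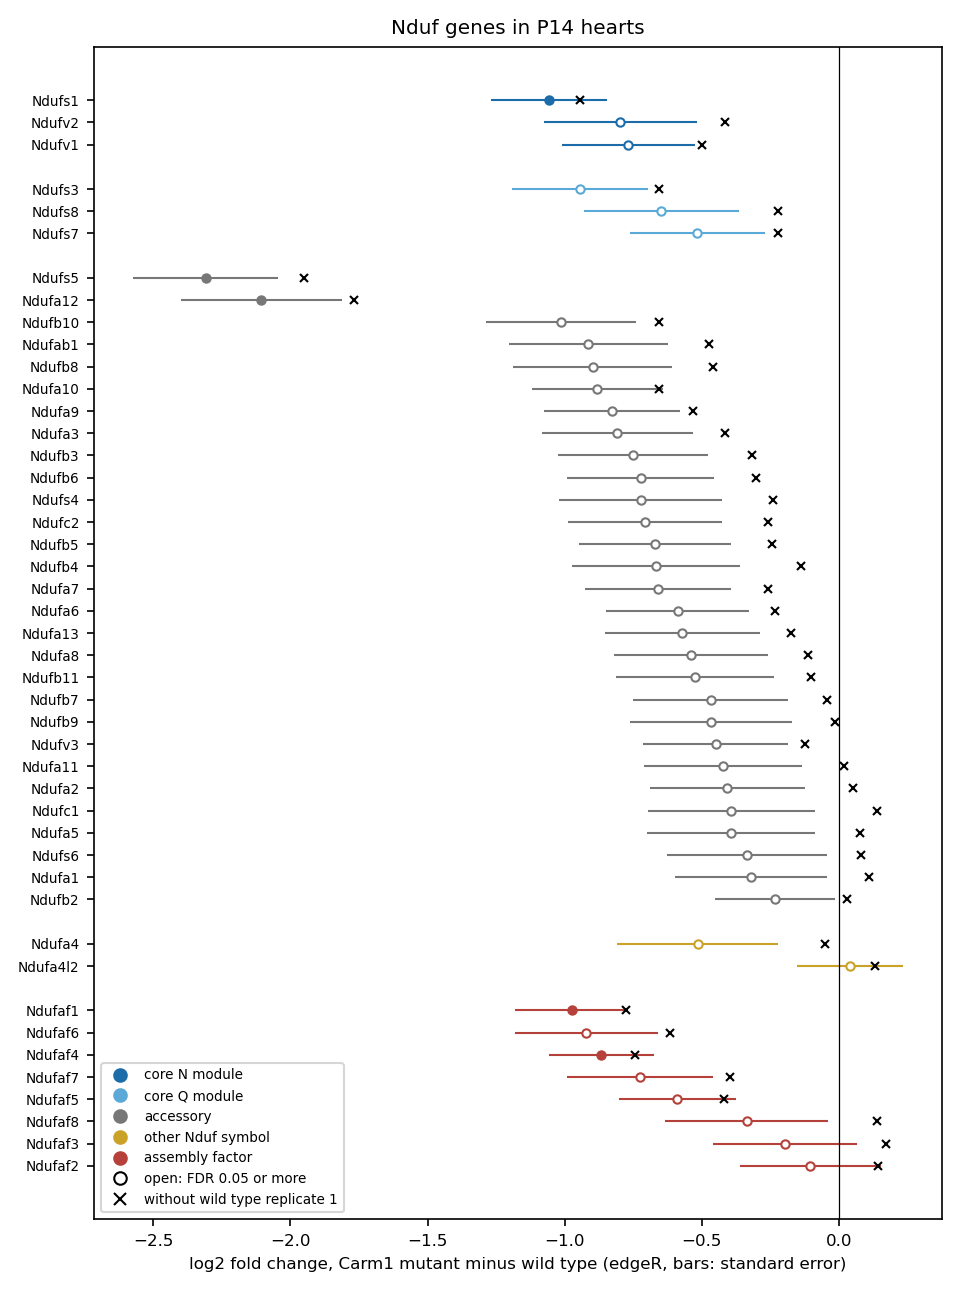
Log2 fold change of 45 Nduf genes (Carm1 mutant minus wild type, horizontal axis) by role, with bars of 1 SE from edgeR; filled points passed an FDR of 0.05 and crosses give the value without wild type replicate 1. Of the points shown, that of Ndufa4l2 (0.04) lies above 0 and the others lie below, and Ndufs5 (−2.31) and Ndufa12 (−2.11) lie lowest.

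Ndufs5 and Ndufa12 had the lowest fold changes, and both have a processed copy elsewhere in the genome that holds nearly the same bases. Ndufs5 is an accessory subunit of the membrane arm, and Ndufa12 is an accessory subunit of the matrix arm. The copy of Ndufs5 is BC002163 (GRCm38 chr16:42955631-42955949, plus strand), which matches it over 319 bases at 99.4% identity. That of Ndufa12 is Gm15920 (chr5:130188395-130188796, plus strand), which matches over 402 bases at 99.5%. Each pair is shown over 60 bases of the coding sequence around a difference, since a read from such a stretch tells gene from copy only by the bases in capitals, which differ:
Ndufs5: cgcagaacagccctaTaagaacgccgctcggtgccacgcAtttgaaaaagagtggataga
BC002163: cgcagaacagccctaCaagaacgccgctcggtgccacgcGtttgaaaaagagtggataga
Ndufa12: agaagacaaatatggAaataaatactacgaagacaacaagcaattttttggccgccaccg
Gm15920: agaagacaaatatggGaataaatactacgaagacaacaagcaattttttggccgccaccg
Counted from 1 at the first base of each gene's coding sequence, with the gene's base first, the whole alignments differ by T81C and A105G for Ndufs5 and by A135G and T414C for Ndufa12.

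Ndufs5 (chr4:123712710-123718202, minus strand) had 27.4 and 30.4 CPM in the mutant, against 176 and 110.2 CPM in the wild type, a log2 fold change of −2.31 ± 0.27 (edgeR FDR 0.00769). Its copy BC002163 had 90.4 and 106 CPM in the mutant, against 2.52 and 1.53 CPM in the wild type, a log2 fold change of 5.61 ± 0.29 (edgeR FDR 2.56e-04). Gene and copy thus lay apart in opposite directions, with no overlap between the groups in either. The copy made up 76.7% and 77.7% of the sum of gene and copy in the mutant, against 1.41% and 1.37% in the wild type. Summed, they had 118 and 137 CPM in the mutant, against 179 and 112 CPM in the wild type, where the groups overlapped and the test did not pass (log2 fold change −0.19 ± 0.26, edgeR FDR 0.670).

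Ndufa12 (chr10:94198720-94221443, plus strand) had 28.7 and 42.0 CPM in the mutant, against 185 and 118 CPM in the wild type, a log2 fold change of −2.11 ± 0.29 (edgeR FDR 0.0120). Gm15920 had 169.7 and 197 CPM in the mutant, against 109 and 67.0 CPM in the wild type, a log2 fold change of 1.06 ± 0.26 that did not pass (edgeR FDR 0.0519). The copy held 85.5% and 82.4% of the sum in the mutant, against 37.0% and 36.1% in the wild type. The sum was 198 and 239 CPM in the mutant, against 294 and 185 CPM in the wild type, with overlapping groups (log2 fold change −0.13 ± 0.27, edgeR FDR 0.779). How the authors' counting treated reads that match several places was not given in the sources used here, so the level of either gene apart from its copy is uncertain.

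**Figure D2:**
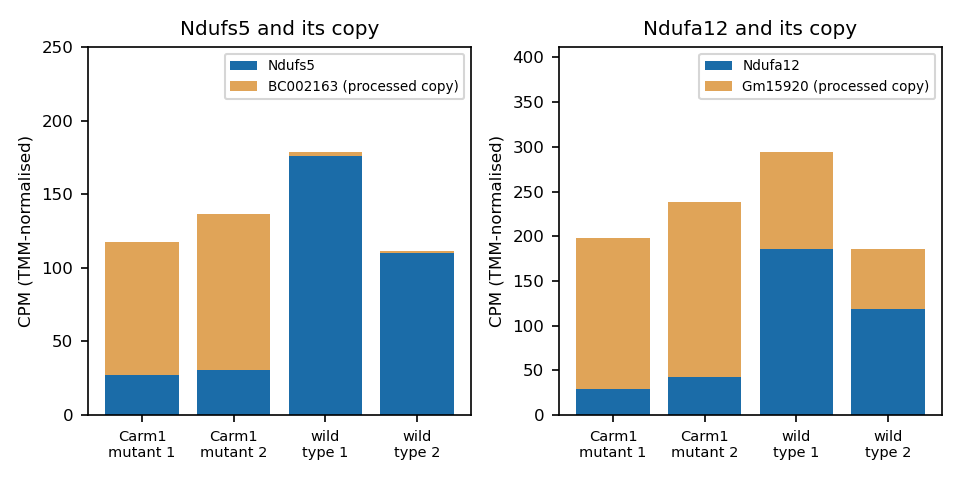
Stacked CPM of Ndufs5 with its copy BC002163 and of Ndufa12 with its copy Gm15920 in each library, Carm1 mutant replicates left of wild type replicates. In the mutant libraries the copy takes 76.7% and 77.7% of the Ndufs5 bar and 85.5% and 82.4% of the Ndufa12 bar, while the full bars of the groups overlap.

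Processed copies of this kind, with at least 90% identity over at least 50% of the copy, were found for 14 of the 46 genes, 32 copies in all. Of these copies 18 held 0 counts and 22 held fewer than 20, and 10 could be tested. Beyond Ndufs5 and Ndufa12, copies held a sizeable part of a gene's own counts in Ndufa7, at 15.3%, and Ndufab1, at 14.8%. Ndufa7, an accessory subunit, had 105 and 109 CPM in the mutant, against 211 and 127 CPM in the wild type (log2 fold change −0.66 ± 0.27, edgeR FDR 0.154), with −0.69 when its copies were added and −0.26 without wild type replicate 1. With the copies' counts added to every gene, edgeR called 3 Nduf genes lower (4.59% of all genes tested), which were Ndufs1, Ndufaf1 and Ndufaf4, and the median log2 fold change of the 46 genes was −0.62.

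Among the 7 nuclear core subunits of the matrix arm, both mutant libraries lay below both wild type libraries for every gene on the TMM scale and for 4 of them on library totals, and 1 gene fell. Their median log2 fold change was −0.77, with −0.50 when wild type replicate 1 was left out and −0.36 with library totals. Of all genes tested 4.58% fell, and 28.7% had both mutant libraries below both wild type libraries (12.1% on library totals). Ndufs1 (chr1:63143596-63176833, minus strand), which carries iron-sulphur clusters in the N module, had 199 and 200.4 CPM in the mutant, against 450.2 and 381 CPM in the wild type. Its level in the mutant was 48.1% of that in the wild type, a log2 fold change of −1.06 ± 0.21 (edgeR FDR 0.0286), and −0.95 without wild type replicate 1. The call was lost with library totals (edgeR FDR 0.0584) and without mutant replicate 1 (0.350) or mutant replicate 2 (0.321).

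The other core subunits did not pass. In the N module, Ndufv1, which binds NADH and the flavin, had 297 and 299.6 CPM in the mutant, against 599 and 417 CPM in the wild type (log2 fold change −0.77 ± 0.24, edgeR FDR 0.0920). Its partner Ndufv2, an iron-sulphur protein, had 304 and 353 CPM in the mutant, against 709 and 434 CPM in the wild type (−0.80 ± 0.28, edgeR FDR 0.114). In both, wild type replicate 1 was the highest library, and leaving it out gave −0.50 for Ndufv1 and −0.41 for Ndufv2. In the Q module, Ndufs3 had the lowest fold change (−0.95 ± 0.25, edgeR FDR 0.0584). It had 149.6 and 172 CPM in the mutant, against 369 and 250.9 CPM in the wild type. Its log2 fold change was −0.66 without wild type replicate 1. Ndufs8 and Ndufs7, iron-sulphur proteins of the same module, had log2 fold changes of −0.65 ± 0.28 and −0.52 ± 0.25. Without wild type replicate 1 these were −0.22 for each.

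Of the 29 accessory subunits only Ndufs5 and Ndufa12 passed the test, and 18 had both mutant libraries below both wild type libraries on the TMM scale, against 8 on library totals. Over all genes tested the shares were 28.7% on the TMM scale and 12.1% on library totals, and 4.58% were called lower. The 10 Ndufb genes, whose products sit in the membrane arm, had a median log2 fold change of −0.67, and 0 were called; the median was −0.19 without wild type replicate 1 and −0.24 with library totals. Ndufb10 had the lowest of them, with 288 and 329 CPM in the mutant, against 765 and 481 CPM in the wild type (−1.01 ± 0.27, edgeR FDR 0.0621). Without wild type replicate 1 its log2 fold change was −0.66. At the other end Ndufb2 had 38.4 and 39.2 CPM in the mutant, against 53.6 and 37.6 CPM in the wild type, so the groups overlapped (−0.23 ± 0.22, edgeR FDR 0.524).

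The 12 accessory Ndufa genes had a median log2 fold change of −0.58, which was −0.20 without wild type replicate 1 and −0.16 with library totals. Ndufa10, a subunit related to nucleoside kinases, had 413 and 427 CPM in the mutant, against 891 and 655 CPM in the wild type (−0.88 ± 0.24, edgeR FDR 0.0640). Ndufa9, which stabilises the junction of the arms, had 177 and 197 CPM in the mutant, against 397 and 268 CPM in the wild type (−0.83 ± 0.25, edgeR FDR 0.0799). Ndufab1, the mitochondrial acyl carrier protein, had 195 and 226 CPM in the mutant, against 504 and 289.5 CPM in the wild type (−0.91 ± 0.29, edgeR FDR 0.0918). In each of these genes the groups did not overlap. Leaving out wild type replicate 1 gave −0.66 for Ndufa10, −0.53 for Ndufa9 and −0.48 for Ndufab1. The X-linked genes Ndufa1 and Ndufb11 had log2 fold changes of −0.32 ± 0.28 and −0.52 ± 0.29 and did not pass (edgeR FDR 0.490 and 0.276); without wild type replicate 1 they were at 0.11 and −0.10. Ndufs4, whose loss in mice causes an encephalopathy, had 91.0 and 109.9 CPM in the mutant, against 214 and 117 CPM in the wild type (−0.72 ± 0.30, edgeR FDR 0.161), and its log2 fold change was −0.24 without wild type replicate 1.

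A pair of structural genes carry Nduf symbols but stand outside the classical complex. Ndufa4, now placed in cytochrome c oxidase, had 351 and 362 CPM in the mutant, against 653 and 365 CPM in the wild type (−0.51 ± 0.29, edgeR FDR 0.293). Without wild type replicate 1 its log2 fold change was −0.05. Its paralogue Ndufa4l2, which is induced in hypoxia, had 40.7 and 48.0 CPM in the mutant, against 46.2 and 39.9 CPM in the wild type. Its log2 fold change of 0.04 ± 0.19 was the 1 positive value among the 46 genes (edgeR FDR 0.910); with library totals, and without wild type replicate 1, 11 genes were positive.

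Of the 8 Ndufaf assembly factors 2 fell, none rose and 6 did not pass, and in 5 both mutant libraries lay below both wild type libraries. Their median log2 fold change was −0.66, the same at this precision as that of the 38 structural genes, of which 3 fell and 26 had groups that did not overlap. The difference between these sets was not tested, and their medians parted in some fits: −0.41 for the factors and −0.24 for the structural genes without wild type replicate 1, and −0.53 and −0.60 without mutant replicate 1. On library totals 4 factors and 12 structural genes had both mutant libraries below both wild type libraries. Of all genes tested 4.58% fell and 2.79% rose. Both mutant libraries lay below both wild type libraries in 28.7% of them, and in 12.1% on library totals. Promoters of the pair that fell are shown from 250 bases upstream up to the annotated start, from RefSeq on GRCm38.p6; capitals mark CCGGAAG, the core bound by ETS factors such as GABP, in Ndufaf1 (chr2:119662835-119663084, minus strand), and CGCATGCG, a form of the NRF1 site, in Ndufaf4 (chr4:24897833-24898082, plus strand):
Ndufaf1: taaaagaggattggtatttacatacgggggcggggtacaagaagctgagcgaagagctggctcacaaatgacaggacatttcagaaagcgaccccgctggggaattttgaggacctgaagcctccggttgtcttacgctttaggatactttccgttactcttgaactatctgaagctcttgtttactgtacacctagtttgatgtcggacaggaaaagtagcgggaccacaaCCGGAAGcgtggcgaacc
Ndufaf4: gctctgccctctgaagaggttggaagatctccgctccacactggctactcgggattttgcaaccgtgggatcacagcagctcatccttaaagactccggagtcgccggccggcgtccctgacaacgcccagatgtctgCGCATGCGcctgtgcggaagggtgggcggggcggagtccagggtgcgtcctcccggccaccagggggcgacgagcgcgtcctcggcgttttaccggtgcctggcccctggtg

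Ndufaf1 (gene at chr2:119655446-119662827, minus strand) belongs to the complex that builds part of the membrane arm. It had 19.5 and 20.4 CPM in the mutant, against 44.6 and 33.8 CPM in the wild type, a log2 fold change of −0.97 ± 0.21 (edgeR FDR 0.0336), and −0.78 without wild type replicate 1. Ndufaf4 (chr4:24898083-24905001, plus strand) acts early, in assembly of the Q module, and had 34.9 and 36.3 CPM in the mutant, against 70.7 and 59.0 CPM in the wild type, a log2 fold change of −0.87 ± 0.19 (edgeR FDR 0.0375), and −0.75 without wild type replicate 1. In both genes the mutant libraries lay close together and below both wild type libraries. With a replicate block the Ndufaf4 call was lost (edgeR FDR 0.0644) and the Ndufaf1 call was kept (edgeR FDR 0.0292). Neither call held without mutant replicate 1 (edgeR FDR 0.262 for Ndufaf1 and 0.392 for Ndufaf4) or without mutant replicate 2 (0.208 and 0.318), nor with library totals (0.0968 and 0.132), and neither gene shares exon bases with another annotated gene.

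Of the other factors, Ndufaf6, which acts in early assembly, had 5.94 and 5.82 CPM in the mutant, against 13.4 and 8.94 CPM in the wild type (−0.92 ± 0.26, edgeR FDR 0.0704). Ndufaf7, a mitochondrial arginine methyltransferase, had 11.3 and 15.02 CPM in the mutant, against 26.4 and 17.0 CPM in the wild type (−0.73 ± 0.27, edgeR FDR 0.126). Ndufaf5, which hydroxylates an arginine of NDUFS7 in human cells, had 10.2 and 11.3 CPM in the mutant, against 18.2 and 14.2 CPM in the wild type (−0.59 ± 0.21, edgeR FDR 0.125). The groups of these 3 genes did not overlap, and those of the remaining 3 did. Leaving out wild type replicate 1 gave −0.62 for Ndufaf6, −0.40 for Ndufaf7 and −0.42 for Ndufaf5. Ndufaf8, the partner of Ndufaf5 in human cells, had 15.1 and 19.6 CPM in the mutant, against 28.2 and 15.5 CPM in the wild type (−0.34 ± 0.30, edgeR FDR 0.500). Ndufaf3, which works with Ndufaf4, had 16.8 and 20.6 CPM in the mutant, against 26.5 and 16.3 CPM in the wild type (−0.20 ± 0.26, edgeR FDR 0.665). Ndufaf2, a paralogue of Ndufa12 that binds a late assembly intermediate, had 9.41 and 12.6 CPM in the mutant, against 13.8 and 9.75 CPM in the wild type (−0.10 ± 0.26, edgeR FDR 0.824). Without wild type replicate 1 the log2 fold changes of Ndufaf8, Ndufaf3 and Ndufaf2 were positive, at 0.14, 0.17 and 0.14, and with library totals they were 0.089, 0.22 and 0.31. Of the exon bases of Ndufaf2, 65.6% overlap the lincRNA gene B230220B15Rik on the opposite strand, which held 0 counts; whether counting used strand was not given in the sources used here.

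Assembly factors were expressed well below structural subunits. Per kilobase of the union of exons, the median level of the 8 factors was 7.33 and 7.82 CPM per kb in the mutant, against 12.7 and 8.48 CPM per kb in the wild type. The median level of the 38 structural genes was 111 and 115 CPM per kb in the mutant, against 235 and 144 CPM per kb in the wild type. The level ranges met at their edges: in mutant replicate 1 factors ran from 3.16 CPM per kb for Ndufaf2 to 18.1 CPM per kb for Ndufaf8, and structural genes ran from 6.82 CPM per kb for Ndufb2 to 321 CPM per kb for Ndufb11. The order of levels was much the same in every library, with Spearman correlations of 0.966 to 0.996 between libraries over the 46 genes. Ranked from the highest mean level, Ndufb10 stood at 7 in the mutant and at 1 in the wild type. These places rest on small differences. In the wild type the mean was 512 CPM per kb for Ndufb10 and 505 for Ndufb11. In wild type replicate 1 Ndufb11 was the higher, at 638 against 628 CPM per kb. In the mutant the mean was 253 CPM per kb for Ndufb10 and 258 for Ndufa4, at rank 6. Ndufs5, counted without its copy, stood at 34 in the mutant and at 21 in the wild type.

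**Figure D3:**
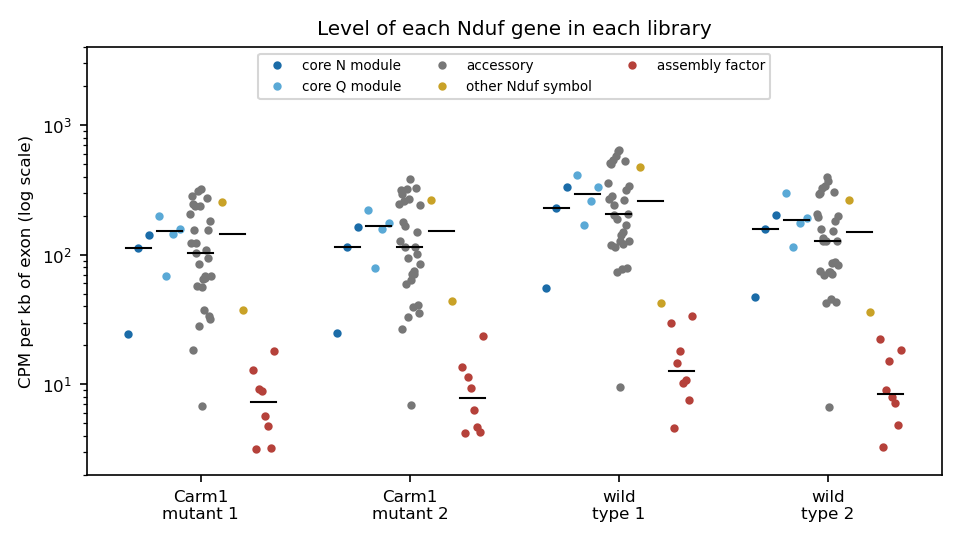
Level of each Nduf gene in CPM per kilobase of exon (log axis) by role and library, with Carm1 mutant libraries left of wild type libraries; short bars mark medians. The medians of assembly factors run from 7.33 to 12.7 CPM per kb over the 4 libraries and those of structural genes from 111 to 235 CPM per kb.

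The balance between factors and subunits can be read without any scaling between libraries, as a share of all Nduf counts. The 8 assembly factors held 1.62% and 1.67% of Nduf counts in the mutant, against 1.51% and 1.74% in the wild type, so the mutant values lay between the wild type values. Within this total the shares of some genes lay apart between the groups, some smaller and some larger in the mutant. How often such shares lie apart in other sets of genes was not tested. With 2 libraries per group such a separation can arise by order alone. Shares of a fixed total offset each other. The genes given here are examples chosen after their values were seen, as a description. Ndufs5 held 0.360% and 0.358% in the mutant, against 1.10% and 1.10% in the wild type, without the counts of its copy BC002163. Of gene and copy summed, the copy held 76.7% and 77.7% in the mutant, against 1.41% and 1.37% in the wild type. The share of the gene alone is therefore uncertain. Ndufb10 held 3.78% and 3.87% in the mutant, against 4.77% and 4.80% in the wild type, and Ndufs3 held 1.96% and 2.03%, against 2.30% and 2.51%. Ndufs1 held 2.61% and 2.36% in the mutant, against 2.81% and 3.80% in the wild type. These genes, Ndufs5 without its copy, took a smaller share of Nduf counts in both mutant libraries than in either wild type library. Among the factors Ndufaf1 did likewise, with 0.256% and 0.240% in the mutant, against 0.278% and 0.338% in the wild type, whereas the Ndufaf4 shares overlapped, with 0.457% and 0.428% in the mutant, against 0.441% and 0.589% in the wild type. Ndufaf3 took a larger share in both mutant libraries, 0.221% and 0.243%, against 0.166% and 0.163% in the wild type. So did Ndufaf2, with 0.124% and 0.148% in the mutant, against 0.0860% and 0.0974% in the wild type, and Ndufa4l2, with 0.534% and 0.565% in the mutant, against 0.288% and 0.399% in the wild type. The same held for structural subunits such as Ndufa11, with 4.04% and 4.06% in the mutant, against 3.47% and 3.18% in the wild type. Another was Ndufs6, with 2.16% and 2.56% in the mutant, against 1.89% and 1.78% in the wild type.

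**Figure D4:**
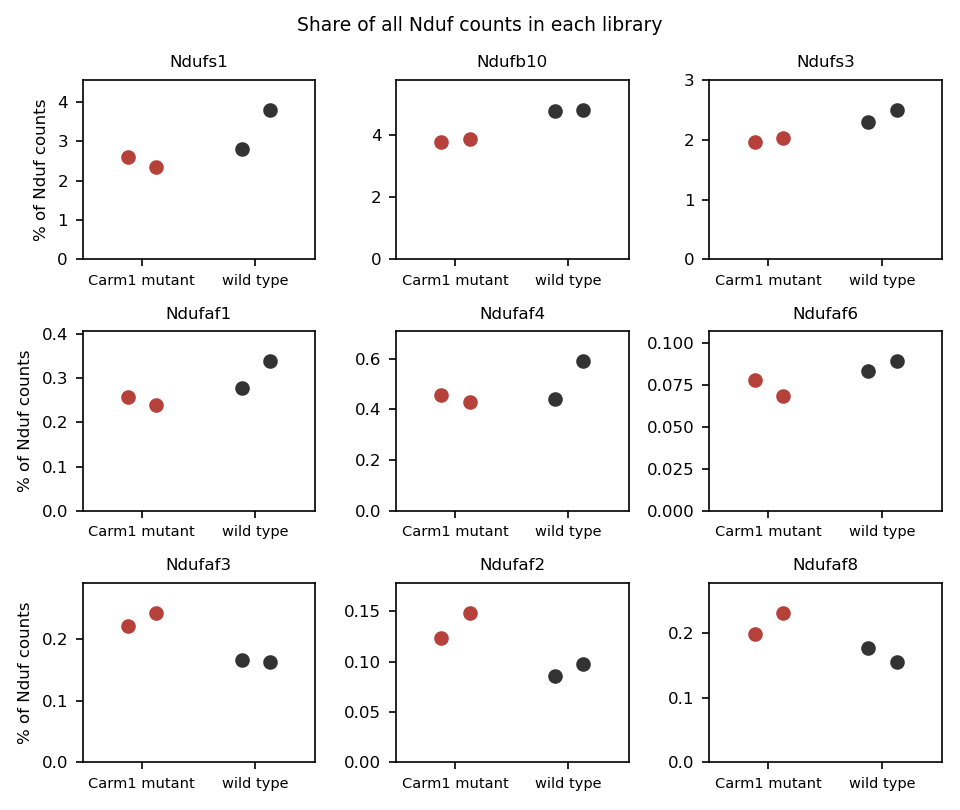
Share of all Nduf counts (percent, linear axes) held by 9 single genes in each library, Carm1 mutant left of wild type. The genes were chosen after their values were seen: Ndufb10 sits at 3.78% and 3.87% in the mutant, below 4.77% and 4.80% in the wild type, and Ndufaf3 at 0.221% and 0.243%, above 0.166% and 0.163%.

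Complex I genes without an Nduf symbol were taken from a list of 19, of which 18 were found and tested. By edgeR 4 fell and 0 rose, where 4.58% of all genes tested fell and 2.79% rose. The log2 fold change of mt-Nd3 was 0.73 without wild type replicate 1 and −0.84 without wild type replicate 2. Among the 7 subunits encoded by mitochondrial DNA the median log2 fold change was −0.55, and mt-Nd4l passed, with 175 and 82.6 CPM in the mutant, against 538 and 329.7 CPM in the wild type (−1.75 ± 0.39, edgeR FDR 0.0375). The next lowest of them, mt-Nd2 and mt-Nd5, had log2 fold changes of −0.90 ± 0.30 and −0.65 ± 0.31 and did not pass (edgeR FDR 0.101 and 0.223). Nor did mt-Nd4, whose annotated bases overlap the end of mt-Nd4l (−0.41 ± 0.30, edgeR FDR 0.418). The mean level of mt-Nd4 was 20725 CPM per kb in the mutant and 27483 in the wild type. That of mt-Nd4l was far lower, at 433 and 1460 CPM per kb. Among the 11 further assembly factors 3 fell, the median was −0.75 and 9 had both mutant libraries below both wild type libraries (7 on library totals). Of all genes tested 28.7% did so, and 12.1% on library totals. Tmem70, which acts in assembly of ATP synthase and of complex I, had 22.0 and 18.6 CPM in the mutant, against 69.6 and 46.5 CPM in the wild type (−1.51 ± 0.24, edgeR FDR 0.0176). Acad9, which works in the same assembly complex as Ndufaf1, had 17.1 and 18.3 CPM in the mutant, against 37.7 and 29.9 CPM in the wild type (−0.94 ± 0.20, edgeR FDR 0.0341). Foxred1, another factor, had 31.1 and 33.6 CPM in the mutant, against 67.4 and 50.2 CPM in the wild type (−0.86 ± 0.21, edgeR FDR 0.0493). Of these calls that of Tmem70 held in every alternative run that kept all 4 libraries, with an FDR of at most 0.0337. Leaving out each library in turn, its log2 fold change ran from −1.81 to −1.20. With library totals the edgeR FDR was 0.110 for Acad9, 0.151 for Foxred1 and 0.0525 for mt-Nd4l. Without mutant replicate 1 it was 0.302 for Acad9 and 0.411 for Foxred1, and without mutant replicate 2 it was 0.215, 0.294 and 0.185 for Acad9, Foxred1 and mt-Nd4l. Foxred1 was also lost with DESeq2 size factors (edgeR FDR 0.0512) and with a replicate block (edgeR FDR 0.0683). Ecsit and Tmem126b, also partners of Ndufaf1, had log2 fold changes of −0.62 ± 0.23 and −0.79 ± 0.22 and did not pass (edgeR FDR 0.127 and 0.0659).

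Promoters, from 250 bases before to 50 bases after the start in RefSeq on GRCm38.p6, were found for 40 of the 46 genes as 42 sequences. Both strands were searched for the letters of 4 sites of factors known to act on mitochondrial genes. AAGATGGC, the core of the YY1 site, stood in 8 of these promoters, or 19.0%, where 2.75% of all 32851 promoters held it. Those genes were Ndufa3, Ndufa9, Ndufaf8, Ndufb8, Ndufc1, Ndufs4, Ndufs6 and Ndufs7, and in each the site began 11 to 39 bases after the start on the gene's own strand. None of them passed the test between genotypes. CGCATGCG stood in 4 promoters, or 9.52% against 1.87% of all, those of Ndufa11, Ndufa8, Ndufaf4 and Ndufaf5. CCGGAAG stood in 6, or 14.3% against 8.86% of all, those of Ndufaf1, Ndufaf8, Ndufb6, Ndufb7, Ndufs3 and Ndufs8. AAGGTCA, the core bound by oestrogen-related receptors, stood in 3, or 7.14% against 4.72% of all, those of Ndufb2, Ndufb4 and Ndufs5. A match is a description of letters, and binding was not measured.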

How the data were processed

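RNA-seq libraries of mouse heart, 2 Carm1 mutant and 2 wild type, were made by BGI from total RNA, per the labels' protocols. FastQC and HISAT2 with the mm10 build were used, per the submitters' processing notes; versions, counting program and annotation were not given in the sources used here. Whole numbers were found in every cell: the authors deposited raw counts per gene with no normalization. Of 54752 identifiers 54723 were named from GENCODE M21 on GRCm38 and 29, holding at most 0.00106% of a library, were not.

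Counts were filtered (filterByExpr), scaled by TMM and tested over 15283 genes with edgeR 4.0.16 (quasi-likelihood, Benjamini-Hochberg FDR 0.05) in R 4.3.3, with genotype as the only term. CPM use TMM-scaled totals; the TMM factors ran from 0.806 to 1.16. Processed copies were matched with BLAST+ 2.17.0. Scripts were tested on simulated data. Named genes were those that passed, the 7 core subunits, all Ndufaf genes and the 4 lowest and 4 highest fold changes. X-linked genes, Ndufa4, Ndufa4l2 and genes with well-counted copies were also named. Ndufa9, Ndufa10 and Ndufs4, and for their shares Ndufa11 and Ndufs6, were named after their values were seen. A member of the set enters the counts and medians but is not reported here. The Nduf set and all lists were chosen with earlier results of these data known. Alternatives were other scalings, no filter, DESeq2 1.42.0, limma-voom 3.58.1, a replicate block, length and GC offsets, added copies and leaving out each library. Replicates differed beyond counting noise, with a chi-square per degree of freedom of 11.5 between the mutant and 51.1 between the wild type libraries.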

Additional observations from a re-analysis of the deposited data

How the results depend on the processing

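The 5 lower calls among Nduf genes were kept with DESeq2 size factors, limma-voom and without the mitochondrial chromosome in the scaling. The numbers called lower among all Nduf genes, assembly factors, structural genes and listed genes without an Nduf symbol were 5, 2, 3 and 4. They were 2, 0, 2 and 1 with library totals, 21, 4, 17 and 8 with no filter on low counts, 17, 3, 14 and 9 with length and GC offsets, 15, 2, 13 and 7 with the DESeq2 Wald test, and 3, 2, 1 and 4 with processed copies added. Leaving out each library in turn gave 2 to 44, 0 to 7, 2 to 37 and 1 to 16; the lowest Nduf count came without either mutant library, 11 came without wild type replicate 1 and 44 without wild type replicate 2, and the causes were not tested.

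Whether replicate numbers pair the samples is not known. Deviations of same-numbered libraries correlated at −0.25 and those of crossed libraries at 0.25. With 2 libraries per group these values mirror each other, so they cannot show whether samples were paired. A replicate block gave 4, 1, 3 and 3 lower calls, and with length and GC offsets 11, 3, 8 and 7; the crossed pairing, chosen after seeing the data, gave 26, 5, 21 and 10.

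With library totals the log2 fold change turned positive for Ndufa11 (0.0029), Ndufa2 (0.018), Ndufc1 (0.036), Ndufa5 (0.036), Ndufaf8 (0.089), Ndufs6 (0.0896), Ndufa1 (0.10), Ndufb2 (0.18), Ndufaf3 (0.22), Ndufaf2 (0.31), Dmac1 (0.00055), mt-Nd3 (0.22) and Nubpl (0.27). Leaving out each library in turn, the sign also changed, over ranges of −0.80 to 0.019 for Ndufa11, −0.80 to 0.053 for Ndufa2, −0.83 to 0.14 for Ndufc1, −0.80 to 0.078 for Ndufa5, −0.75 to 0.14 for Ndufaf8, −0.71 to 0.081 for Ndufs6, −0.70 to 0.11 for Ndufa1, −0.51 to 0.028 for Ndufb2, −0.55 to 0.17 for Ndufaf3, −0.38 to 0.14 for Ndufaf2, −0.10 to 0.15 for Ndufa4l2, −0.84 to 0.73 for mt-Nd3 and −0.38 to 0.087 for Nubpl. The highest value came without wild type replicate 1, except for Ndufa4l2, whose highest came without mutant replicate 1 and which was at −0.10 without wild type replicate 2. With the longest transcript in place of the union of exons, the median level of the 46 genes was 144 CPM per kb in the mutant and 222 CPM per kb in the wild type, against 83.0 and 150.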
